A study of Mus musculus with 16 samples.

Results

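The 6 genes described here, Prx, Mbp, Pmp22, Mag, Sox10 and Cdh19, are Schwann cell genes of peripheral nerve, taken by name from the table of raw gene counts, where all 6 were found among 54752 gene identifiers. They were followed in bulk RNA-seq of iWAT, the inguinal white adipose tissue that lies under the skin of the groin, in 16 libraries from C57BL/6 mice labelled female and aged 90 days. The 4 genotypes, with 4 libraries each, were wild type (WT), Lepob/+, SOD1G93A and SOD1G93A-Lepob/+. Lepob/+ mice carry 1 copy of the ob allele, which encodes no functional leptin, SOD1G93A mice carry a transgene of mutant human SOD1 and are a model of amyotrophic lateral sclerosis, and SOD1G93A-Lepob/+ mice carry both.

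Schwann cells are the glia of peripheral nerve. They run with the axons that enter a tissue, and some of them wrap a large axon in myelin, a stack of membrane held together by a few abundant proteins, while others ensheath small axons without myelin. Subcutaneous fat is reached by sympathetic and sensory nerves, so the RNA of a whole depot holds some Schwann cell RNA. In bulk tissue, fewer Schwann cells and less RNA per Schwann cell cannot be told apart.

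The members have different roles. Periaxin, encoded by Prx (ENSMUSG00000053198, chr7:27499324-27520214, plus strand of GRCm38), is a scaffold under the outer membrane of myelinating Schwann cells. Myelin-associated glycoprotein, encoded by Mag (ENSMUSG00000036634, chr7:30899176-30914873, minus strand), sits on the membrane that faces the axon. Cdh19 (ENSMUSG00000047216, chr1:110888326-110977584, minus strand) encodes a cadherin of the Schwann cell lineage. Pmp22 (ENSMUSG00000018217, chr11:63128982-63159547, plus strand) encodes a tetraspan protein of compact myelin that is also made by many cells outside nerve. Mbp (ENSMUSG00000041607) encodes myelin basic protein, and the same gene gives golli transcripts that are known from lymphoid cells. Sox10 (ENSMUSG00000033006, chr15:79154908-79165240, minus strand) encodes the transcription factor that the Schwann cell lineage depends on, and it is also known from melanocytes, oligodendrocytes and glandular epithelium, that of the mammary gland included. All 6 are protein-coding genes.

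The 250 bases before a transcription start, from a RefSeq table on GRCm38.p6, were at hand for Prx, Pmp22 and Mag. They are shown because all of these genes varied together from mouse to mouse. They are written 5′ to 3′ on the gene's strand, and capitals mark matches on either strand to the SOX motifs ACAAAG and ACAATG and the EGR motif GTGGGNG, which do not overlap each other in these windows. Factors of both families act on myelin genes.
Prx, chr7:27499074-27499323, plus strand: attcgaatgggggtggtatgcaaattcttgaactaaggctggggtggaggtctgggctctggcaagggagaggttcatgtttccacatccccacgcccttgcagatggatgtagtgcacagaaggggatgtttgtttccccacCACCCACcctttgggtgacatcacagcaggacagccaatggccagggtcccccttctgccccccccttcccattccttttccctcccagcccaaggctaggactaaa
Mag, chr7:30914864-30915113, minus strand: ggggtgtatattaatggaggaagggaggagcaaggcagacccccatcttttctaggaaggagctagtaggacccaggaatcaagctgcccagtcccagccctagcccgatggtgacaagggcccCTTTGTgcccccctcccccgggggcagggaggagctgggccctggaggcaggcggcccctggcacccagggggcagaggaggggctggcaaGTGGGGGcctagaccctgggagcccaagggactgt
Pmp22, chr11:63128732-63128981, plus strand: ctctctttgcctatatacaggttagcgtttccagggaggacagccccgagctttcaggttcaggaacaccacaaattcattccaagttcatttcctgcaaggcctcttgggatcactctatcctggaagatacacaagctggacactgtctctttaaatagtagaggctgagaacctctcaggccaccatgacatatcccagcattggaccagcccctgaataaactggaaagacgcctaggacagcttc
The Prx window holds 1 EGR match, the Mag window 1 EGR match and 1 match to ACAAAG, and the Pmp22 window none. RefSeq lists 1 start for Prx, 3 for Mag and 4 for Pmp22, and the window of only 1 start is shown for each. Such matches are common, as 28.1% of all 32851 windows of this length hold GTGGGNG, 16.5% hold ACAAAG and 10.7% hold ACAATG. Mbp, Sox10 and Cdh19 are named only.

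Sequencing depth was 36795376 to 61886313 counts per library, and each member had at least 83 counts in every library. Levels are given as CPM, the counts of a gene relative to the library total and scaled to a fixed total, after TMM scaling between libraries. Some libraries differed from others of the same genotype. In 6 of the 16 libraries (WT 1 and 2, Lepob/+ 3, and SOD1G93A 1, 2 and 4) a list of 7 lymph node genes (stromal chemokines such as Ccl21a, and genes of high endothelial venules such as Glycam1) summed to 499.7 to 1068 CPM, against 3.95 to 46.9 CPM in the other 10. The 10 T cell genes summed to 653.6 to 1326 CPM in these 6 libraries and to 10.1 to 31.0 CPM in the others. None of the 6 was from a SOD1G93A-Lepob/+ mouse, whereas 3 of the 4 SOD1G93A libraries were among them. The library Lepob/+ 4 held 186800 CPM of 12 skeletal muscle genes, against at most 4829 CPM elsewhere, and SOD1G93A-Lepob/+ 3 held no count of Xist and 1756 counts of Y-linked genes although it is labelled female. Of the other cell types known to use these genes, oligodendrocytes and melanocytes had scarce markers, whereas 10 mammary epithelium genes summed to 334.1 to 1306 CPM. The 4 oligodendrocyte genes summed to at most 1.61 CPM, with Opalin at 0 in all 16 libraries, and the 5 melanocyte genes to 1.78 to 3.93 CPM.

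Per kilobase of exon, the mean level over the 16 libraries was 101 CPM for Pmp22, 9.47 for Mbp, 7.33 for Prx, 5.99 for Sox10, 1.51 for Cdh19 and 1.08 for Mag. The highest library was 10.3 times the lowest for Prx, 5.78 times for Cdh19, 4.41 times for Pmp22, 3.8 times for Mag, 3.58 times for Sox10 and 1.80 times for Mbp. The spread was thus wide for Prx and narrow for Mbp, 2 genes of the same sheath.

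Prx stood at 17.0, 25.5, 48.7 and 63.4 CPM in WT 1 to 4 and at 92.6, 22.5, 10.6 and 69.5 CPM in Lepob/+ 1 to 4. It stood at 23.8, 8.99, 58.0 and 25.8 CPM in SOD1G93A 1 to 4 and at 33.6, 58.9, 44.6 and 51.2 CPM in SOD1G93A-Lepob/+ 1 to 4. High and low libraries occurred within WT, Lepob/+ and SOD1G93A, and all 4 genotypes overlapped. The means were 38.7 ± 21.3, 48.8 ± 38.7, 29.1 ± 20.7 and 47.1 ± 10.7 CPM (SD, n = 4 each) in the same order.

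Mag stood at 2.85, 3.85, 5.14 and 7.54 CPM in WT and at 7.66, 4.62, 2.02 and 6.63 CPM in Lepob/+. It stood at 2.24, 2.87, 4.89 and 3.42 CPM in SOD1G93A and at 3.099, 5.45, 4.56 and 3.74 CPM in SOD1G93A-Lepob/+. The libraries that were low for Prx were mostly low for Mag too, and the genotypes overlapped. With 83 to 381 counts per library, Mag was the member with the fewest reads.

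Cdh19 stood at 2.72, 4.76, 8.55 and 7.19 CPM in WT and at 14.0, 3.57, 3.11 and 9.73 CPM in Lepob/+. It stood at 3.60, 2.42, 11.6 and 4.76 CPM in SOD1G93A and at 4.74, 7.42, 5.33 and 9.80 CPM in SOD1G93A-Lepob/+. Lepob/+ 1 was the highest library for Cdh19 as for Prx, SOD1G93A 2 was the lowest for both, and the genotypes overlapped.

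Pmp22 stood at 174.3, 164.1, 337.2 and 361.0 CPM in WT and at 302.3, 239.9, 92.9 and 143.8 CPM in Lepob/+. It stood at 98.4, 143.5, 409.6 and 167.0 CPM in SOD1G93A and at 278.6, 305.6, 272.1 and 296.3 CPM in SOD1G93A-Lepob/+. The 4 libraries with both mutations lay close together (288.2 ± 15.5 CPM, SD, n = 4), inside the range of each of the other genotypes apart from Lepob/+, whose highest library was slightly below their highest.

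Mbp stood at 75.9, 88.5, 76.1 and 98.7 CPM in WT and at 101.9, 56.8, 77.5 and 70.3 CPM in Lepob/+. It stood at 88.2, 89.0, 80.1 and 78.4 CPM in SOD1G93A and at 61.3, 83.4, 72.9 and 84.2 CPM in SOD1G93A-Lepob/+. Mbp, which lies on chromosome 18, was nearly level across the 16 mice, and SOD1G93A 2, the lowest library for Prx, was among the higher ones for Mbp.

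Sox10 stood at 24.0, 20.7, 17.3 and 16.6 CPM in WT and at 22.8, 8.92, 18.7 and 24.6 CPM in Lepob/+. It stood at 15.01, 7.82, 16.2 and 11.8 CPM in SOD1G93A and at 23.6, 25.8, 10.7 and 27.97 CPM in SOD1G93A-Lepob/+. Every SOD1G93A library lay below every WT library, by a narrow margin at 16.2 and 16.6 CPM, and the other pairs of genotypes overlapped. Sox10 was the only member with such a gap, 1 of 6, while 0.684% of all genes tested were lower in SOD1G93A than in WT without overlap. No member was higher without overlap in that comparison (0 of 6, against 1.37% of all genes). In the other comparisons of 2 genotypes it was 0 of 6 in either direction, against 1.15% of all genes lower and 1.2% higher in SOD1G93A-Lepob/+ against Lepob/+, 0.375% and 0.532% in Lepob/+ against WT, 3.6% and 3.58% in SOD1G93A-Lepob/+ against SOD1G93A, and 1.66% and 1.98% in SOD1G93A-Lepob/+ against WT.

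**Figure D1:**
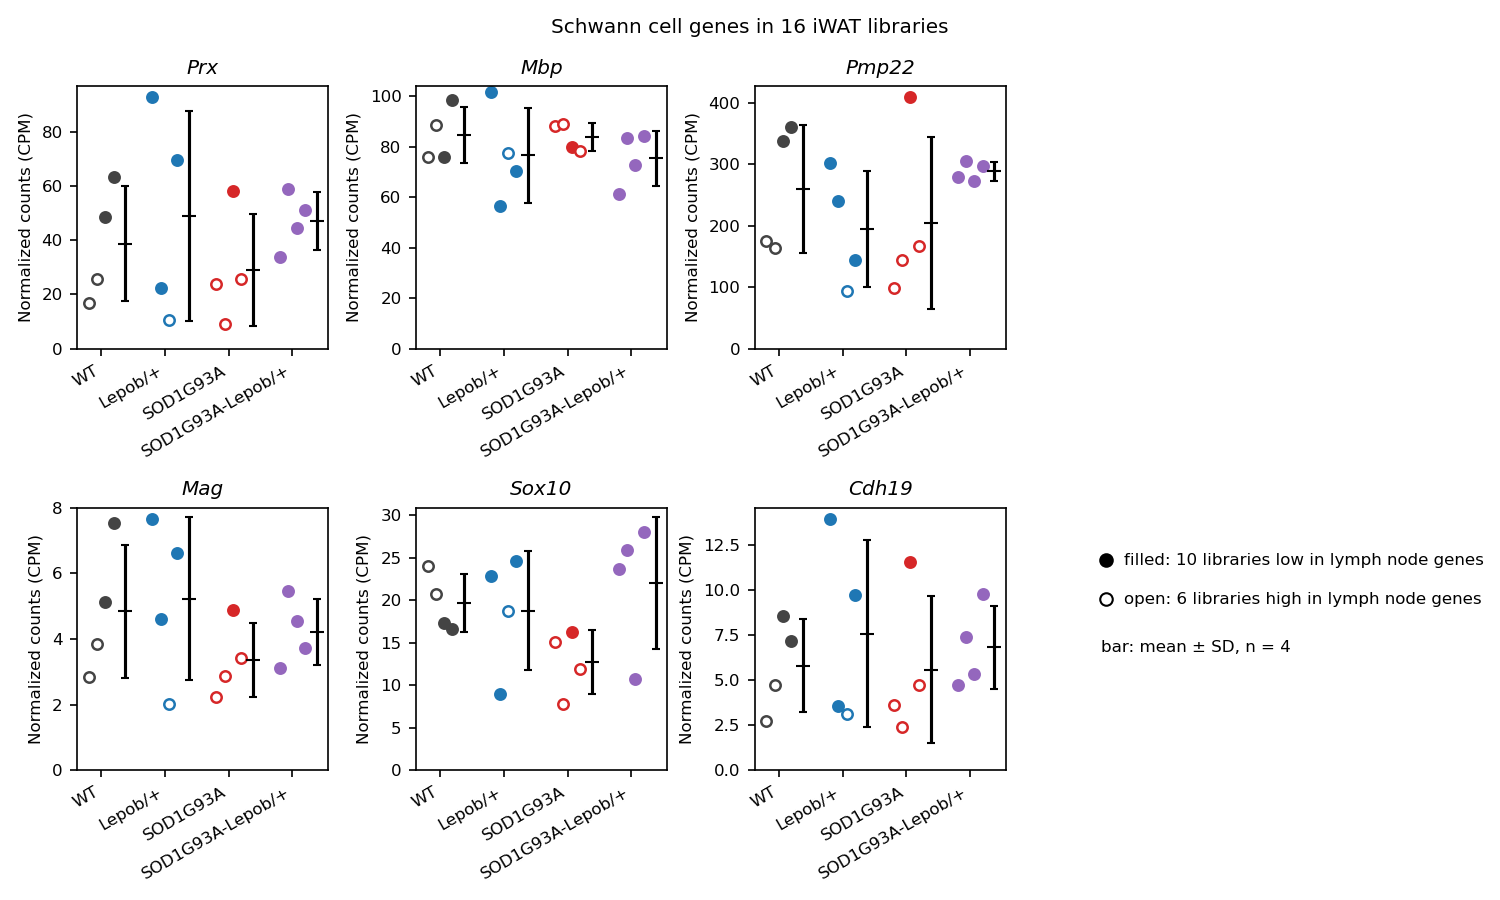
Normalized counts (CPM, linear axes from 0) of the 6 Schwann cell genes in the 16 iWAT libraries, by genotype; each point is a library, open for the 6 libraries high in lymph node genes, and bars are mean ± SD (n = 4). Prx, Mag and Cdh19 spread widely within WT, Lepob/+ and SOD1G93A, whereas Mbp lies between 56.8 and 101.9 CPM throughout.

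The first question was whether the transgene changed the nerve content of the fat. With the 8 transgenic libraries set against the 8 others and both Lep genotypes weighted equally, Mag was at 0.747 times the level without the transgene (log2 fold change −0.42, SE 0.28, 95% interval of the fold 0.494 to 1.13). Prx was at 0.853 times (interval 0.437 to 1.66), Sox10 at 0.872 (0.613 to 1.24), Cdh19 at 0.930 (0.520 to 1.66), Mbp at 0.987 (0.831 to 1.17) and Pmp22 at 1.08 (0.683 to 1.71). None of the 6 passed the test (edgeR quasi-likelihood, adjusted p = 1 for each), where 0% of all 19736 genes passed, and at an unadjusted p under 0.05 there were 0 of 6 members and 3.2% of all genes. The interval was narrow for Mbp and wide for Prx.

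In the mice with normal Lep, all 6 members were lower on average in SOD1G93A than in WT, with a median log2 difference of −0.37 over the members against 0.02 over all genes, and none passed the test (0% of all genes did). Sox10 differed most, by −0.63 (SE 0.34, unadjusted p = 0.0827, adjusted p = 0.998, edgeR), followed by Mag at −0.53 (SE 0.39), Prx at −0.41 (SE 0.64), Pmp22 at −0.34 (SE 0.44), Cdh19 at −0.05 (SE 0.55) and Mbp at −0.02 (SE 0.16). At an unadjusted p under 0.05 there were 0 of 6 members and 2.56% of all genes. The values leaned on single libraries, as without SOD1G93A 3 Prx was at −1.0 and Pmp22 at −0.95, and without WT 4 Prx was at −0.08 and without SOD1G93A 1 Pmp22 at −0.12. Lymph node genes were high in 3 of 4 SOD1G93A and 2 of 4 WT libraries, and with their mean level as a covariate Prx (0.05) and Cdh19 (0.21) were higher instead of lower. Sox10, Mag, Pmp22 and Mbp stayed lower with this covariate. All 10 T cell genes were higher in SOD1G93A (median 0.92), while 9 of 10 mammary epithelium genes (median −0.37) and all 6 macrophage genes (median −0.42) were lower, and their part in the differences was not tested. On the Lepob/+ background, SOD1G93A-Lepob/+ against Lepob/+, 4 members were lower and 2 higher, from −0.31 for Mag (SE 0.39) to 0.57 for Pmp22 (SE 0.44), and again 0 of 6 passed at an adjusted p under 0.05, as did 0% of all genes. At an unadjusted p under 0.05 the figures were 0 of 6 and 8.24%.

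The second question was the effect of the ob allele. In Lepob/+ against WT, 3 members were higher and 3 lower, from −0.41 for Pmp22 (SE 0.44) to 0.39 for Cdh19 (SE 0.55) on the log2 scale. None passed the test, as 0% of all genes did, and at an unadjusted p under 0.05 there were 0 of 6 members and 4.37% of all genes. In SOD1G93A-Lepob/+ against SOD1G93A, 5 of 6 members were higher, with a median log2 difference of 0.41 against 0 over all genes. Sox10 was 1.73 times as high (log2 0.79, SE 0.34, 95% interval of the fold 1.05 to 2.86), with an unadjusted p = 0.0337 and an adjusted p = 0.275 (edgeR). Prx was 1.61 times as high (interval 0.626 to 4.17), Pmp22 1.41 times (0.735 to 2.70), Mag 1.25 times (0.700 to 2.25) and Cdh19 1.22 times (0.536 to 2.78), and Mbp was at 0.899 times (0.705 to 1.15). No member passed the adjusted threshold, and 0% of all genes did. At an unadjusted p under 0.05 it was 1 of 6 members against 16.5% of all genes. In this comparison the lymph node genes moved with the genotype, since 3 of 4 SOD1G93A libraries and none of the SOD1G93A-Lepob/+ libraries held them. With their mean level as a covariate, Prx (−0.30), Pmp22 (−0.20), Mag (−0.37) and Cdh19 (−0.43) were lower instead of higher. Sox10 stayed higher and Mbp stayed lower with this covariate. Because the covariate moved with the genotype, the fit cannot tell lymph node content and genotype apart here.

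With both mutations against WT, the median log2 difference over the members was 0.16, with 4 of them higher, 0 of 6 passed at an adjusted p under 0.05 (0% of all genes), and 0 of 6 did at an unadjusted p under 0.05 (4.74% of all genes). Whether the effect of the transgene depended on the Lep genotype was tested as an interaction. It was largest for Pmp22 (log2 0.91, SE 0.62, adjusted p = 0.601) and Sox10 (log2 0.86, SE 0.48, unadjusted p = 0.0907, adjusted p = 0.564, edgeR), no member passed, 0% of all genes passed, and at an unadjusted p under 0.05 there were 0 of 6 members and 7.98% of all genes. DESeq2, the tool of the study, also called 0 of 6 members in each of the 7 comparisons, where it called 0.00976%, 0.232%, 0.137%, 0.00325%, 2.85%, 0.143% and 0.205% of all genes in SOD1G93A against WT, SOD1G93A-Lepob/+ against Lepob/+, the transgene averaged over Lep genotypes, Lepob/+ against WT, SOD1G93A-Lepob/+ against SOD1G93A, SOD1G93A-Lepob/+ against WT, and the interaction. The 7 comparisons share libraries and are not independent.

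**Figure D2:**
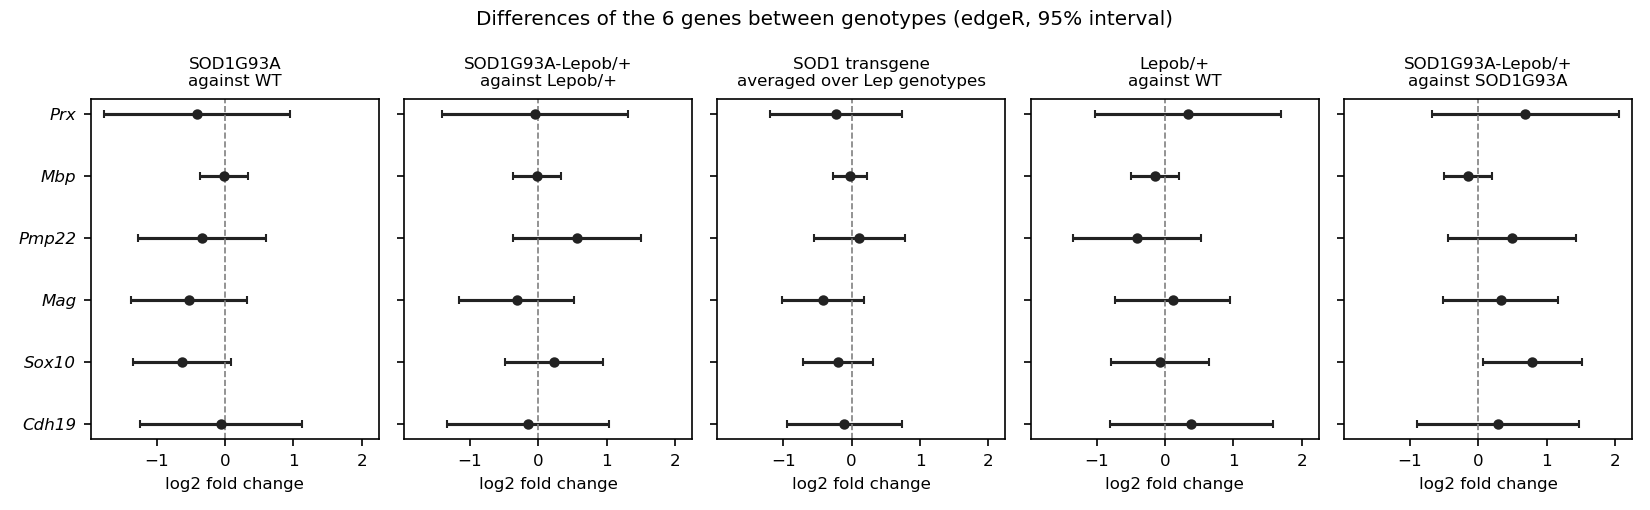
log2 fold change of each of the 6 genes in 5 comparisons between genotypes (points) with the 95% interval from the edgeR fit over all 16 libraries (bars). Every interval crosses 0 except that of Sox10 in SOD1G93A-Lepob/+ against SOD1G93A, from 0.07 to 1.52, and those of Mbp are the shortest.

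Of the 15 pairs of members, 6 varied together from mouse to mouse past adjustment, namely all pairs among Prx, Mag, Cdh19 and Pmp22, whereas Sox10 (r from 0.158 to 0.481) and Mbp passed with no member. Prx and Cdh19 rose and fell together over the 16 libraries, with Pearson r = 0.932 (permutation p = 1e-05, the smallest that 100000 resamples can give, and 0.00015 after adjustment over 15 pairs of members) and Spearman rho = 0.918 (permutation p = 1e-05). The relation stood at r = 0.936 without the 2 libraries farthest from the median of Prx, at 0.890 within the 10 libraries low in lymph node genes, where it passed (permutation adjusted p = 0.0144), and at 0.842 within the 6 high ones, where it did not (exact permutation p = 0.0444, adjusted p = 0.228). Prx and Mag gave r = 0.844 and rho = 0.865 (permutation p = 6e-05 and 8e-05, adjusted 0.00045 and 0.0006), and 0.821 without the 2 farthest libraries, but 0.694 and 0.488 within the 10 and the 6 libraries, where neither passed adjustment (permutation tests, exact for the 6, adjusted p = 0.189 and 0.667). Mag and Cdh19 gave r = 0.773 and rho = 0.771 (permutation p = 0.00055 and 0.00076, adjusted 0.00275 and 0.0038), 0.744 without the 2 farthest, and 0.491 and 0.514 within the 10 and the 6 libraries, where neither passed (permutation tests, exact for the 6, adjusted p = 0.452 and 0.667).

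Mal, a lipid-raft protein of myelin that is not a member, followed the same pattern. It stood at 6.54, 7.83, 13.4 and 17.6 CPM in WT and at 26.8, 7.50, 3.01 and 24.9 CPM in Lepob/+. It stood at 8.36, 1.97, 17.8 and 7.85 CPM in SOD1G93A and at 8.90, 18.2, 12.6 and 18.0 CPM in SOD1G93A-Lepob/+. Its highest and lowest libraries were those of Prx. Over the 16 libraries Mal and Cfap100 (r = 0.982 each) were among the 3 genes most alike to Prx of 15771 with a mean of at least 1 CPM.

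The 10 genes most alike to the mean of Prx, Mag, Sox10 and Cdh19 included B230206H07Rik (r = 0.963 over 16 libraries), Cadm4 (0.954), Mal (0.952), D430041D05Rik (0.950), Drp2, Ncmap and Fa2h (0.945 each), Gpr37l1 (0.944) and Cfap100 (0.941). Cadm4 encodes an adhesion protein of the Schwann cell surface that faces the axon, Drp2 a partner of periaxin, Ncmap a small protein of non-compact myelin and Fa2h the enzyme that hydroxylates myelin lipids. For Cdh19 alone the nearest genes included B230206H07Rik (0.945) and Fa2h (0.944), and for Mag they were Pex5l (0.912), Zfp229 (0.907) and Aplf (0.895). These values describe 16 libraries and were not tested.

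The same mice that were high in lymph node genes were mostly low in Prx, Cdh19, Mag and Pmp22. Prx ran from 8.99 to 25.8 CPM in the 6 and from 22.5 to 92.6 in the 10, Cdh19 from 2.42 to 4.76 and from 3.57 to 14.0, Mag from 2.02 to 3.85 and from 3.099 to 7.66, and Pmp22 from 92.9 to 174.3 and from 143.8 to 409.6. Sox10 (7.82 to 24.0 and 8.92 to 27.97 CPM) and Mbp (75.9 to 89.0 and 56.8 to 101.9 CPM) overlapped broadly. Several other lists had lower medians in the 6 libraries too. The summed median was 17280 CPM in the 6 and 27710 CPM in the 10 for mature adipocytes, 6857 and 14040 CPM for fibroblasts, 637.1 and 759.4 CPM for endothelium and 896.2 and 1432 CPM for macrophages, while that of mammary epithelium was 766.8 and 622.8 CPM. The part of these other tissues in the levels of the members was not tested.

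Mbp stood apart from the other myelin genes over all 16 mice, with r from 0.021 with Pmp22 to 0.273 with Cdh19, and none of its 5 pairs passed. Within the 10 libraries low in lymph node genes, however, Mbp and Prx gave r = 0.850 (permutation p = 0.00208, adjusted p = 0.0312 over 30 within-set values), against 0.067 within the 6 high ones (exact permutation p = 0.875). Cdh19 (0.745, permutation p = 0.0139, adjusted p = 0.139) and Mag (0.642, permutation p = 0.0455, adjusted p = 0.228) were positive with Mbp in the 10 libraries without passing adjustment. The difference between the sets of libraries was not tested, and gene-level counts do not separate myelin from golli transcripts. The genes most alike to Mbp, Nek4 (r = 0.743), Zfp688 (0.733) and Mmrn1 (0.729), included no myelin gene. Cnp, another enzyme gene of myelin that is active in many cell types, stood higher with the lymph node genes, at 80.2 to 151.2 CPM in the 6 libraries high in lymph node genes and 41.6 to 78.8 CPM in the 10 low ones.

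Pmp22 varied with fat. Its relation to the mean level of 7 mature adipocyte genes (Adipoq, Plin1 and Fabp4 among them) was r = 0.878 and rho = 0.853 over the 16 libraries (permutation p = 2e-05 and 6e-05, adjusted 0.00072 and 0.00216 over 36 relations of members with lists), and 0.845 without the 2 farthest libraries. Within the 10 and the 6 libraries it was 0.713 and 0.583 (permutation p = 0.0293, and 0.147 by the exact test), neither past adjustment. Pmp22 also passed with Prx (r = 0.705, rho = 0.674, permutation p = 0.00257 and 0.00566, adjusted 0.00897 and 0.0141), at 0.576 without the 2 farthest libraries, but within the 10 and the 6 libraries that relation fell to 0.080 and 0.308 and did not hold. Its relations to Mag (r = 0.696, rho = 0.682, permutation p = 0.00299 and 0.00459) and to Cdh19 (r = 0.662, rho = 0.671, permutation p = 0.00568 and 0.00565) passed as well (adjusted p from 0.00897 to 0.0142), stood at 0.460 and 0.598 without the 2 farthest libraries, and were at −0.069 and 0.177 within the 10 libraries and at 0.886 and 0.188 within the 6, with none past adjustment there. The nearest genes to Pmp22 were Mob3b (0.937), Meis2 (0.936) and Akr1b8 (0.929). Adiponectin, Adipoq, ranked 55 of 15771 at 0.884.

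Sox10 varied with epithelium. Its relation to the mean level of 10 mammary epithelium genes, such as Epcam, Krt14 and Krt18, was r = 0.802 and rho = 0.765 (permutation p = 0.00022 and 0.00083, adjusted 0.00396 and 0.0149), 0.682 without the 2 farthest libraries, 0.879 within the 10 libraries low in lymph node genes (permutation p = 0.00067, adjusted p = 0.0482 over 72 within-set values) and 0.894 within the 6 high ones (exact permutation p = 0.0222, adjusted p = 0.527). No other member passed with this list, where r ran from −0.226 for Mag to 0.123 for Mbp. The summed epithelial level ran from 533.2 to 980.2 CPM in WT libraries and from 550.6 to 798.4 CPM in Lepob/+ libraries. With the transgene it ran from 334.1 to 735.3 CPM on the normal Lep background and from 382.1 to 1306 CPM on the Lepob/+ background, so the genotypes overlapped. SOD1G93A-Lepob/+ 3, the library with Y-linked counts and none of Xist, was the lowest of its genotype for the list (382.1 CPM) and for Sox10 (10.7 CPM). The others of that genotype ran from 932.1 to 1306 CPM for the list and from 23.6 to 27.97 CPM for Sox10. In SOD1G93A-Lepob/+ against SOD1G93A, where Sox10 rose with an unadjusted p = 0.0337 (edgeR), most of the epithelial list rose too. Its median log2 change was 0.697, as 8 of its 10 members went up and 2 went down. Of these, 4 had an unadjusted p under 0.05 (edgeR), all of them upward, against 16.5% of all genes, and 0 passed adjustment. The part of the epithelium in the Sox10 differences above was not tested. The genes most alike to Sox10 were Epb41l4b (0.9), Hhipl2 (0.898) and 2310030G06Rik (0.877). Erbb3, the neuregulin receptor of Schwann cells and of many epithelia, ranked 125 of 15771 at 0.712, ahead of Krt14 (0.669) and Epcam (0.636).

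**Figure D3:**
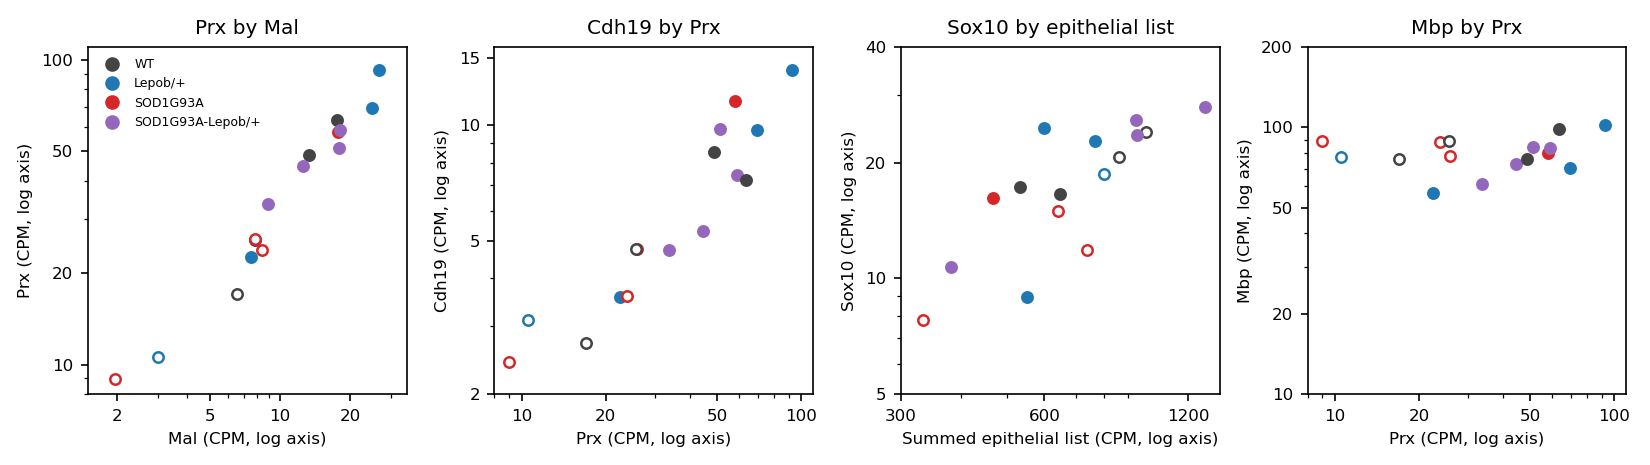
Levels in the 16 libraries on log axes (CPM): Prx by Mal, Cdh19 by Prx, Sox10 by the summed mammary epithelium list, and Mbp by Prx; colours are genotypes and open points are the 6 libraries high in lymph node genes. Prx and Mal lie close to a line (r = 0.982), and Sox10 follows the epithelial list (r = 0.802 with its mean level). Mbp varies little with Prx over all 16 libraries (r = 0.191) and with r = 0.850 in the 10 libraries low in lymph node genes.

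Of the 36 relations of members with lists of 6 other cell types, 8 passed adjustment, all of them positive. Besides those of Sox10 with epithelium and Pmp22 with adipocytes, they joined Pmp22 (r = 0.729) and Mag (0.625) to fibroblasts, Prx (0.655) and Pmp22 (0.670) to endothelium, and Prx (0.683) and Cdh19 (0.658) to adipocytes (adjusted permutation p from 0.0239 to 0.0492). Spearman's rho for these 6 ran from 0.529 to 0.679 (adjusted permutation p from 0.0483 to 0.124) and passed for 3 of them, and r without the 2 farthest libraries ran from 0.459 to 0.819. Within the 10 libraries low in lymph node genes these 6 relations ran from −0.095 for Prx and adipocytes to 0.452 for Pmp22 and fibroblasts, and within the 6 high ones from 0.442 to 0.836, and none passed adjustment in either set. Skeletal muscle and macrophages passed with no member.

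**Figure D4:**
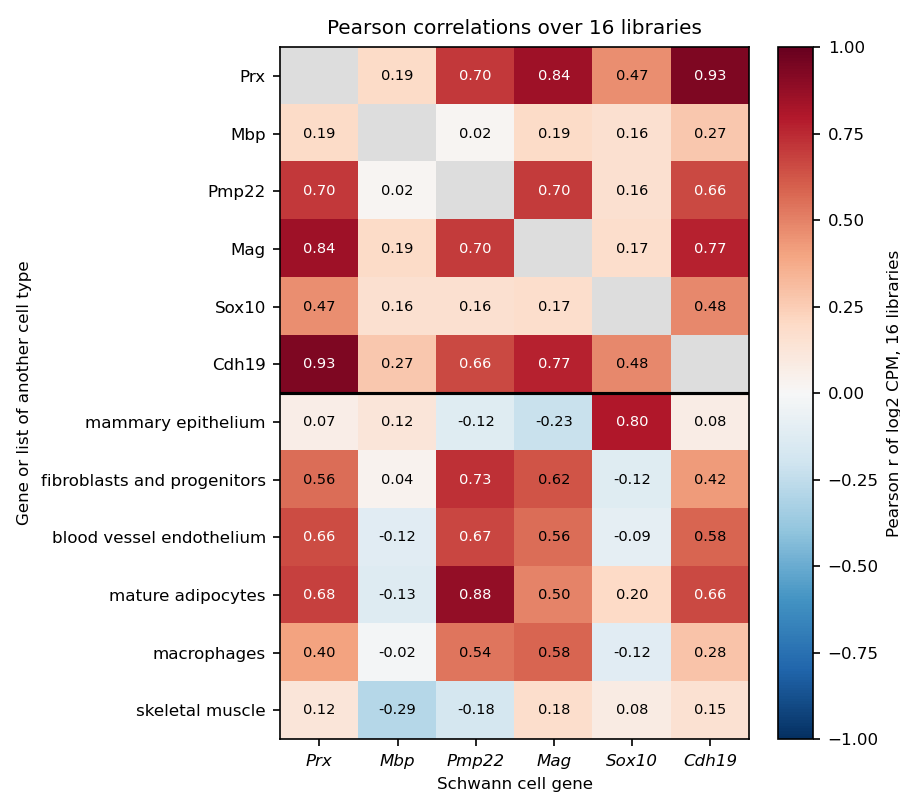
Pearson r of log2 CPM over 16 libraries between the 6 Schwann cell genes (upper block) and between each of them and the mean level of 6 lists of other cell types (lower block), from −1 (blue) to 1 (red). Prx, Mag and Cdh19 form one block (r from 0.773 to 0.932), which Pmp22 joins at r from 0.662 to 0.705. Sox10 stands out for mammary epithelium (0.802) and Pmp22 for mature adipocytes (0.878), and Mbp is pale throughout.

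The 71 genes of 7 other nerve lists that passed the filter gave no call by edgeR in any comparison, as 0% of all genes did, and DESeq2 on all libraries also called none of the 72 to 78 listed genes that it tested. At an unadjusted p under 0.05 edgeR gave 1.41% of the 71 genes for the transgene, against 3.2% of all genes, and 7.04% in SOD1G93A-Lepob/+ against SOD1G93A, against 16.5%. Which cells of the fat the reads of these 71 genes came from was not tested. The 13 genes of myelin and myelin lipid, from Mal and Cnp to the connexin Gjb1, all passed the filter, and with the transgene 11 were lower and 2 higher, with a median log2 difference of −0.18. Mal was at −0.22 (SE 0.46), Cnp at 0.00 (SE 0.21), Gjb1 at −0.32 (SE 0.45) and Drp2 at −0.23 (SE 0.38). In Lepob/+ against WT all 13 were higher (median 0.27, against 0.03 over all genes). Their sum was 449.3, 189.5, 148.5 and 410.0 CPM in Lepob/+ 1 to 4, against 157.0 to 352.9 CPM in WT. Of these libraries, WT 1, WT 2 and Lepob/+ 3 were high in lymph node genes and Lepob/+ 4 was rich in muscle genes, and the part of this was not tested. In SOD1G93A-Lepob/+ against SOD1G93A 12 of 13 were higher (median 0.54, against 0 over all genes). Each time 0 of 13 passed the adjusted edgeR threshold. In SOD1G93A-Lepob/+ against SOD1G93A other lists moved as well. The median was −5.86 for T cells (10 of 10 lower), 0.697 for mammary epithelium (8 of 10 higher) and 0.58 for fibroblasts (8 of 8 higher). It was 0.56 for macrophages (6 of 6 higher), 0.43 for mature adipocytes (7 of 7 higher) and 0.355 for endothelium (6 of 6 higher). The part of these lists in it was not tested. The genes of a list are not independent of each other. Of 12 regulators and receptors, 11 passed the filter, and with the transgene 5 were higher and 6 lower. The transcription factor Egr2, which drives myelination, was at 0.33 (SE 0.36), its partner Nab2 at 0.13 (SE 0.15), Zeb2 at 0.17 (SE 0.25), Erbb3 at 0.08 (SE 0.25), the secreted Lgi4 at −0.18 (SE 0.26) and S100b at −0.34 (SE 0.36).

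Among 9 genes of non-myelinating Schwann cells, 3 were higher and 6 lower with the transgene (median −0.04), from Ncam1 at −0.29 (SE 0.40) to Ptprz1 at 0.17 (SE 0.25). Scn7a, a sodium channel subunit and the most abundant of them at 68.6 to 154.8 CPM, was at −0.06 (SE 0.20), L1cam at −0.05 (SE 0.14), Col28a1 at −0.02 (SE 0.20) and the neurotrophin receptor Ngfr at 0.09 (SE 0.57). Of 11 genes that Schwann cells turn on after nerve injury, 8 passed the filter, Shh was at 0 in all libraries, and with the transgene 2 were higher and 6 lower, with Jun at −0.25 (SE 0.24), Atf3 at −0.27 (SE 0.27), Runx2 at −0.03 (SE 0.26) and Gfap at −0.66 (SE 0.35). Bdnf was the only one of the 71 nerve genes, 1.41% against 3.2% of all genes, with an unadjusted p under 0.05 for the transgene (log2 0.72, SE 0.29, edgeR unadjusted p = 0.0267, adjusted p = 1). The library SOD1G93A-Lepob/+ 4 stood far above the others for it, at 12.4 CPM against 2.13 to 4.68 CPM. Among 8 genes of the nerve sheath, 3 were higher and 5 lower, from Cldn1 at −0.30 (SE 0.29) to Etv1 at 0.28 (SE 0.30), with Slc2a1 at 0.06 (SE 0.15), Itgb4 at −0.10 (SE 0.20), Osr2 at −0.20 (SE 0.31) and Sox9 at 0.01 (SE 0.21).

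Axonal transcripts were scarce, and the cell bodies of these neurons lie outside the depot. Of 17 genes, 9 passed the filter, and Dbh, Scn10a and Chat, markers of sympathetic, sensory and motor neurons, were at 0 in all libraries. With the transgene 4 were higher and 5 lower, including Uchl1 at 0.23 (SE 0.38), Stmn2 at −0.22 (SE 0.25), Slc18a2 at 0.38 (SE 0.26), Elavl4 at −0.97 (SE 0.62) and Calca, the gene of the sensory peptide CGRP, at 1.04 (SE 0.65). Calca was at 33.0 CPM in SOD1G93A 1 and at 0.688 to 2.71 CPM in the other 15. A list of growth and guidance cues and receptors held 15 genes, the adrenoceptor gene Adrb3 included, and shared Bdnf and Gdnf with the injury genes above. Of the 15, 14 passed the filter, and with the transgene 4 were higher, Bdnf included, and 10 lower (median −0.08). The adipocyte beta-3 adrenoceptor gene Adrb3, at 165 to 733 CPM the most abundant, was at −0.06 (SE 0.23), Ntrk2 at −0.03 (SE 0.24), Nrg4 at 0.12 (SE 0.27), Clstn3 at 0.21 (SE 0.25) and Ntf5 at −0.43 (SE 0.46).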

How the data were processed

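RNA from whole iWAT of 16 mice labelled female was sequenced by the authors. Per the study's methods and processing notes, reads were trimmed with fastp, aligned with HISAT2 2.1.0 to mm10 and counted with featureCounts 2.0.2, keeping uniquely mapped reads. The deposited values are raw counts per gene. The labels and the methods name different library kits and no strand setting, so reads of Prx and of Gm15541, an antisense gene sharing 300 exon bases with it (410 counts in all), may not be separated. Replicates are taken to be separate mice.

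Gene symbols, positions and exon lengths came from GENCODE M21 on GRCm38, which held 54723 of the 54752 identifiers. Counts were filtered (filterByExpr, minimum 10 counts, total 15), which left 19736 genes, all 6 members included, scaled by TMM and fitted for all 16 libraries together with edgeR 4.0.16 (R 4.3.3), using quasi-likelihood tests and Benjamini-Hochberg adjustment within each comparison over all genes, threshold 0.05. SE is the log2 fold change over the square root of F. Correlations used log2 CPM (prior count 1) and two-sided permutation tests, with 100000 resamples or, for 6 libraries, all orders. DESeq2 1.42.0, other scalings and filters, a replicate block and left-out libraries served as alternatives. The fit was tested on simulated counts.

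The members, lists and tests were chosen with earlier results of these data known. The text names the members, the 4 most abundant genes of each nerve list, any past the threshold, the 2 with the lowest p for the transgene, and the genes most alike. Some genes that this rule names are not reported here.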

Additional observations from a re-analysis of the deposited data

Results flagged for a closer look

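Among 180 sets of 4 libraries (the named genes within each genotype), 7 held 1 library far from the other 3, where chance flags about 1 in 20 sets. None of these was a member (24 sets). Calca was at 33.0 CPM in SOD1G93A 1, and at 1.32 CPM in SOD1G93A-Lepob/+ 2. Bdnf was at 12.4 CPM in SOD1G93A-Lepob/+ 4. Egr2 was at 25.7 CPM in SOD1G93A-Lepob/+ 1. Ngfr was at 46.9 CPM in Lepob/+ 4, the library rich in skeletal muscle genes. Scn7a was at 139.6 CPM in SOD1G93A 3, the 1 SOD1G93A library low in lymph node genes. Uchl1 was at 16.7 CPM in WT 4.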

How the results depend on the processing

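No member passed the threshold in any of 185 fits of a comparison, the alternatives and left-out libraries included. Over all genes, edgeR called 0 in every comparison, and DESeq2 on all libraries called 3 in SOD1G93A against WT, 70 in SOD1G93A-Lepob/+ against Lepob/+, 39 for the transgene averaged, 1 in Lepob/+ against WT, 562 in SOD1G93A-Lepob/+ against SOD1G93A, 44 in SOD1G93A-Lepob/+ against WT and 51 for the interaction. DESeq2 on the compared genotypes called 14, 35, 5, 1771 and 350 in the comparisons of 2 genotypes in that order, and edgeR on them called 2 each in SOD1G93A-Lepob/+ against SOD1G93A and against WT. Without Lepob/+ 4 and SOD1G93A-Lepob/+ 3, edgeR called 2 each in SOD1G93A-Lepob/+ against Lepob/+, SOD1G93A and WT. Leaving out 1 library in turn gave 0 to 1 in SOD1G93A against WT (highest without SOD1G93A 4), 0 to 3 in SOD1G93A-Lepob/+ against SOD1G93A, 0 in Lepob/+ against WT and 0 to 2 in the others, each highest without SOD1G93A-Lepob/+ 3. The cause was not tested.

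Of 304 member values under other settings, 12 changed sign. With the lymph node covariate Prx was at 0.05 and Cdh19 at 0.21 in SOD1G93A against WT, Mag at -0.08 in Lepob/+ against WT, and Prx, Pmp22, Mag and Cdh19 at -0.30, -0.20, -0.37 and -0.43 in SOD1G93A-Lepob/+ against SOD1G93A. Without Lepob/+ 4 and SOD1G93A-Lepob/+ 3, Prx was at 0.20 and Cdh19 at 0.10 in SOD1G93A-Lepob/+ against Lepob/+, Cdh19 at 0.02 for the transgene averaged and Mag at -0.04 in Lepob/+ against WT. With the replicate block Prx was at 0.07 in SOD1G93A-Lepob/+ against Lepob/+, and the block changed no call, with 0 genes and 0 members past the threshold in every comparison. For 24 pairs of libraries with the same number, deviations from the genotype means correlated from -0.694 to 0.52, and only 5 pairs exceeded 0.1, so numbers were not taken as pairs. With 1 library left out, 29 of 512 values changed sign: in SOD1G93A against WT Mbp ran from -0.08 to 0.04 and Cdh19 from -0.71 to 0.19, in SOD1G93A-Lepob/+ against Lepob/+ Prx from -0.38 to 0.46, Mbp from -0.14 to 0.15 and Cdh19 from -0.41 to 0.32, for the transgene averaged Prx from -0.53 to 0.03, Mbp from -0.08 to 0.07, Pmp22 from -0.19 to 0.26 and Cdh19 from -0.43 to 0.13, and in Lepob/+ against WT Prx from -0.18 to 0.66, Mag from -0.13 to 0.38, Sox10 from -0.24 to 0.16 and Cdh19 from -0.09 to 0.64. Without changing sign, Prx ran from -1.0 to -0.08 and Pmp22 from -0.95 to -0.12 in SOD1G93A against WT, and in SOD1G93A-Lepob/+ against SOD1G93A Prx ran from 0.40 to 1.28, Pmp22 from 0.27 to 1.09, Cdh19 from 0.04 to 0.93 and Sox10 from 0.62 to 1.02.

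Of 15 pairs of members, 6 passed under each setting. Of 36 relations with lists, 8 passed, 8 with prior count 0.25, 7 with DESeq2 size factors (Mag with fibroblasts no longer did) and 13 without Lepob/+ 4 and SOD1G93A-Lepob/+ 3.

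Mag, at 83 to 381 counts per library, is the member with the fewest reads. Its SE for the transgene averaged (0.278) lay between the smallest, 0.116 for Mbp, and the largest, 0.449 for Prx. The precision of every comparison is that of 4 libraries a genotype.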

Other observations

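A gene outside the naming rule, chosen after its values were seen, divided the libraries as the lymph node genes did. Nefh, the heavy neurofilament gene of large axons, was at 2.22 to 4.16 CPM in the 6 libraries high in lymph node genes and at 0 to 0.238 CPM in the other 10. It thus ran opposite to Prx, at 8.99 to 25.8 CPM in the 6 and 22.5 to 92.6 CPM in the 10. The neurofilament genes Nefl and Nefm were scarce, at no more than 0.340 and 0.405 CPM in any library. In SOD1G93A-Lepob/+ against SOD1G93A Nefh had an unadjusted p = 0.0145 (adjusted p = 0.261, edgeR). At an unadjusted p under 0.05 there were 16.5% of all genes in this comparison. Of the 9 tested genes of axons and neurons, 4 were higher and 5 lower there. The lymph node genes divide these groups in nearly the same way, so that the genotype and the lymph node genes cannot be told apart there. Whether the Nefh reads came from axons was not tested.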
